A study of Mus musculus with 30 samples.

Results

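The genes described here are 33 members of the p53 pathway, taken as a named list and found in the count files through a table that pairs mouse Ensembl identifiers with gene symbols, out of 50686 genes listed. The list was chosen with earlier results of these data known, so a share above that of all genes is no independent support. All 33 were counted in every library and all 33 passed the filter on low counts. RNA was sequenced from mouse osteoclasts grown in culture, with 10 groups of 3 libraries and 30 libraries in all. Osteoclasts are the bone-resorbing cells that arise when macrophage-lineage precursors fuse. The starting cells were macrophages grown from the marrow of C57BL/6J mice, either Terc-/- (KO) or wild type (WT). Every group was treated with RANKL (100 ng/ml), the cytokine that drives fusion, and with M-CSF (25 ng/ml), the growth factor of the lineage. Terc is the RNA template of telomerase.

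Multinucleated cultures, kept until large multinucleated cells were seen, formed 8 groups. These were KO of 1 and 6 months, KO of 1 and 6 months with the number 519 in the title (set 519), WT of 1, 6 and 20 months, and WT of 1 month with a tag beginning D1 (set D1). Cultures stopped after 2 days came from WT donors of 20 and 6 months. Neither title tag is explained in the labels, and libraries without a tag are called unprefixed. No label names a litter, a generation of breeding or the number of donors.

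The p53 protein, encoded by Trp53, is a transcription factor that is kept low by its ubiquitin ligase Mdm2 and is stabilised by DNA damage, by short telomeres and by other stresses. It then raises the transcription of genes that stop the cell cycle, such as Cdkn1a, of genes that trigger apoptosis, such as Bax, Bbc3 and Pmaip1, and of genes of DNA repair and metabolism. Mdm2 is itself a p53 target, which closes a feedback loop. Because p53 is controlled mostly as a protein, the level of its messenger RNA is no measure of its activity.

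Depth was lowest in set 519, at 4269798 to 12987993 counts per library, and 13182063 to 25147975 counts elsewhere. Terc had 0 counts in the 12 KO libraries, which allows up to 0.0162 CPM, and 5 counts over the 18 WT libraries, so these data do not check the genotype. Set D1 had the female pattern, with Xist at 816 to 908 CPM against at most 0.454 CPM elsewhere, so every contrast with set D1 also compares sexes. Osteoclast genes (the sum of 10 markers such as Ctsk and Acp5) were counted in all groups but over a wide range, lowest at 619 to 680 CPM in 1-month KO and highest at 44100 to 46500 CPM in set D1. Unprefixed 1-month WT held 2230 to 2340 CPM and unprefixed 6-month KO 2310 to 2620 CPM. These groups and 1-month KO, although multinucleated, lay below the 2-day cultures. The 2-day WT sums were 3470 to 4090 CPM at 6 months and 4460 to 4600 CPM at 20 months. The sum of 8 genes of cycling cells ran from 376 to 405 CPM in set D1 to 2700 to 2750 CPM in 20-month 2-day WT. Of the 8 neutrophil markers 6, and all 4 B-cell and 4 erythroid markers, were too low to be tested. In bulk RNA, fewer cells of a type and less RNA per cell cannot be told apart. Whether replicates are separate animals or cultures is not stated, so p-values measure only the spread between these libraries, which may be technical.

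Levels below are TMM-scaled CPM (counts scaled to library size, with sizes adjusted by the TMM method), and differences are log2 fold changes ± standard error from edgeR's quasi-likelihood test, called at a Benjamini-Hochberg adjusted p under 0.05. Per kilobase of exon, Cdkn1a was the most abundant member, at 174 FPKM (CPM per kilobase of exon), averaged over all libraries. It was followed by Mdm2 at 77.5, the cyclin Ccng1 at 66.2 and the mitochondrial pore protein Bax at 42.8, on the same scale. The lowest were the receptor Eda2r at 0.795 and the membrane protein Perp at 0.419. Group means of Pmaip1 spanned 13.9-fold, the widest range of any member, and those of Ei24 1.44-fold, the narrowest. The averaged members were highest in KO libraries of 1-month donors, at 0.30 to 0.37 on the log2 scale above their mean over all 30 libraries for unprefixed KO and 0.22 to 0.30 for set 519 KO. They were lowest in multinucleated WT of 6 and 20 months, at -0.23 to -0.22 and -0.26 to -0.23.

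**Figure D1:**
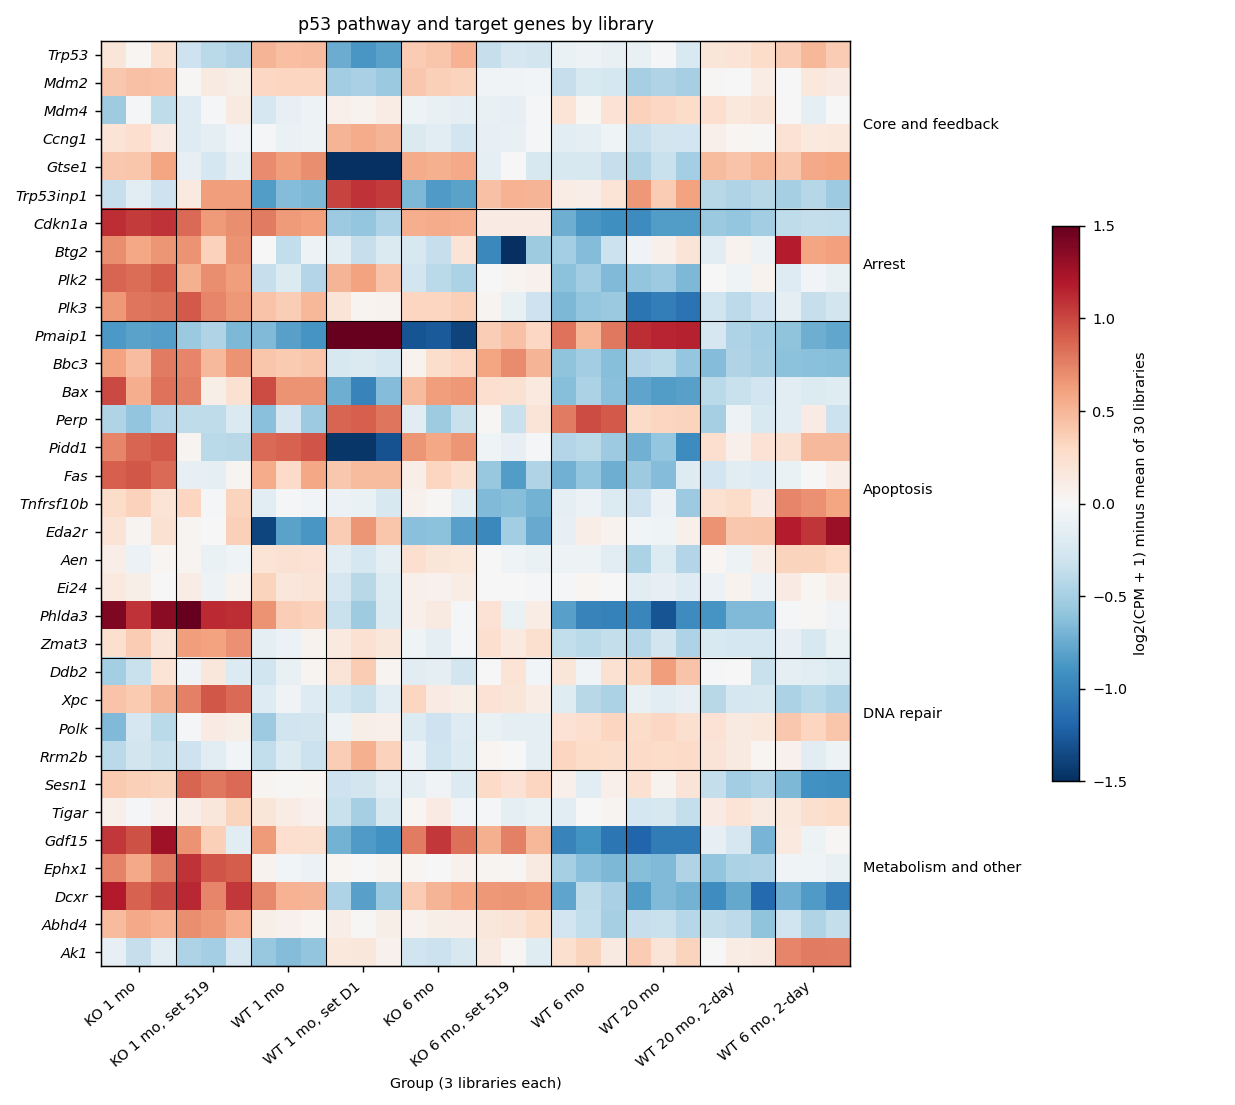
Each row is a member and each column 1 of 30 libraries, and colour gives log2(CPM + 1) minus the member's mean over the 30 libraries, with values past either end of the scale drawn in its end colour. All 6 KO libraries of 1-month donors are red for Cdkn1a, Plk2, Plk3, Phlda3, Ephx1 and Dcxr, while Pmaip1, Perp and Trp53inp1 are red in set D1. Unprefixed WT libraries of 1 month also lie above the mean for Cdkn1a, Plk3, Phlda3 and Dcxr.

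The p53 protein binds DNA at a pair of decamers, so the bases upstream of the members were searched for this site. The RefSeq promoter table (GRCm38.p6) held 38 windows of 250 upstream bases for 25 of the 33 members. A single decamer of the p53 consensus lay in 9 windows of 9 members (23.7%), against 7.10% of 32851 windows over all genes. A pair of p53 cores, each of them CAAG or CATG or CTAG or CTTG, with 6 bases of any kind between them, lay in windows of 5 members (13.2%), against 5.84% of all windows. Both motifs read the same on either strand, and they overlap in Cdkn1a, Trp53 and Aen. A match is a stretch of letters and was not tested for binding. Cdkn1a is shown whole because it is the most abundant member, and Mdm2 because it closes the feedback loop. The Mdm2 window lies wholly before the gene, so sites inside the gene were not searched. Its decamer is therefore not shown to serve the loop. Bases are counted from the start that follows each window, and some members have windows at more than 1 start. The other Cdkn1a window, chr17:29093519-29093768, held neither motif, and neither did the further windows of Aen and Bbc3. Capitals mark the decamers and the paired site, and the 5 paired sites of 20 bases follow in capitals.
Cdkn1a, chr17:29090729-29090978, plus strand: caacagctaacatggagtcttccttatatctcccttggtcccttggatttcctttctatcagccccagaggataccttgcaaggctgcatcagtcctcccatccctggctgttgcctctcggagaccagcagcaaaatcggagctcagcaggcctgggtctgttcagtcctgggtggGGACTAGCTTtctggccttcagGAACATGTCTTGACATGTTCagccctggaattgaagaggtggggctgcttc
Mdm2, chr10:117710759-117711008, minus strand: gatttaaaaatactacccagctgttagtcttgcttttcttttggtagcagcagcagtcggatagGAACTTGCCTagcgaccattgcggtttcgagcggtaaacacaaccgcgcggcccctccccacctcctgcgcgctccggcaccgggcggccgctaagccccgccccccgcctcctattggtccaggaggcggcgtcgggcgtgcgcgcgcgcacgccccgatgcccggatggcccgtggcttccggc
Cdkn1a pair, chr17:29090928-29090947, bases -51 to -32 from the start: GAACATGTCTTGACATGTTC
Trp53 pair, chr11:69580284-69580303, bases -75 to -56: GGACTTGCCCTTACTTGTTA
Aen pair, chr7:78895937-78895956, bases -121 to -102: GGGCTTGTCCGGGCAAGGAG
Bbc3 pair, chr7:16309486-16309505, bases -97 to -78: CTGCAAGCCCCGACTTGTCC
Tigar pair, chr6:127109746-127109765, minus strand, bases -213 to -194: GGTCTAGCTCTGGCAAGACT

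Against WT of the same age, most called members were higher in KO cultures. In unprefixed 1-month KO, 19 of 33 members rose and 4 fell, where 41.4% of all 15310 tested genes were called in either direction, 20.7% higher and 20.8% lower. The median member had a log2 fold change of 0.34, against 0.00 over all genes. In unprefixed 6-month KO, 19 rose and 9 fell, beside 60.0% of all genes (30.5% higher, 29.5% lower), with medians of 0.32 and -0.02. Set 519 KO of 1 month against set D1 WT gave 20 higher and 8 lower, beside 62.3% of all genes (31.1% higher, 31.2% lower), and medians of 0.46 and -0.01. These 3 comparisons share no library. In each of them 11 members rose (33.3%), against 7.37% of all genes, and 0 fell in each, against 6.52%. Because the members were chosen with earlier results of these data known, this excess is not an independent test. The 11 were Cdkn1a, Btg2, Plk3, Bbc3, Phlda3, Zmat3, Xpc, Gdf15, Ephx1, Dcxr and Abhd4. Among these calls, Bbc3 and Btg2 each held a call that was lost when single libraries were left out. Bbc3 at 1 month was lost without any 1 of 5 of the 6 libraries, all but KO replicate 2 (adjusted p up to 0.25). Btg2 at 6 months was lost without WT replicate 2 or 3 or KO replicate 3 (up to 0.3). Of the falls in unprefixed 1-month KO, Ei24 was lost without KO replicate 2 or 4 or WT replicate 1 (up to 0.22). The fall of Aen was lost without KO replicate 2 (0.082).

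The other pairings of the KO and WT sets used the same libraries again, so they are given side by side. Set 519 KO against unprefixed WT of 1 month had 15 members higher and 8 lower (57.0% of all genes called, 27.2% higher and 29.8% lower), and at 6 months 16 higher and 9 lower (51.6%, 25.7% higher and 25.9% lower). Unprefixed KO against set D1 WT had 22 higher and 10 lower (73.7%, 38.2% higher and 35.5% lower). Cell makeup differed between the groups compared. Osteoclast markers summed to 619 to 680 CPM in unprefixed 1-month KO and 6920 to 8140 CPM in set 519 KO, against 2230 to 2340 CPM in unprefixed WT, so the KO sets lay on opposite sides of this WT group. At 6 months the sums were 2310 to 2620 CPM in unprefixed KO and 26400 to 27500 CPM in set 519 KO, against 20500 to 22200 CPM in WT. Sums of 8 macrophage markers were higher in unprefixed KO at both ages, at 44900 to 48000 CPM against 27500 to 29800 CPM in WT of 1 month and at 26400 to 27000 CPM against 11000 to 11100 CPM in WT of 6 months. The part of cell makeup in the members' differences was not tested.

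**Figure D2:**
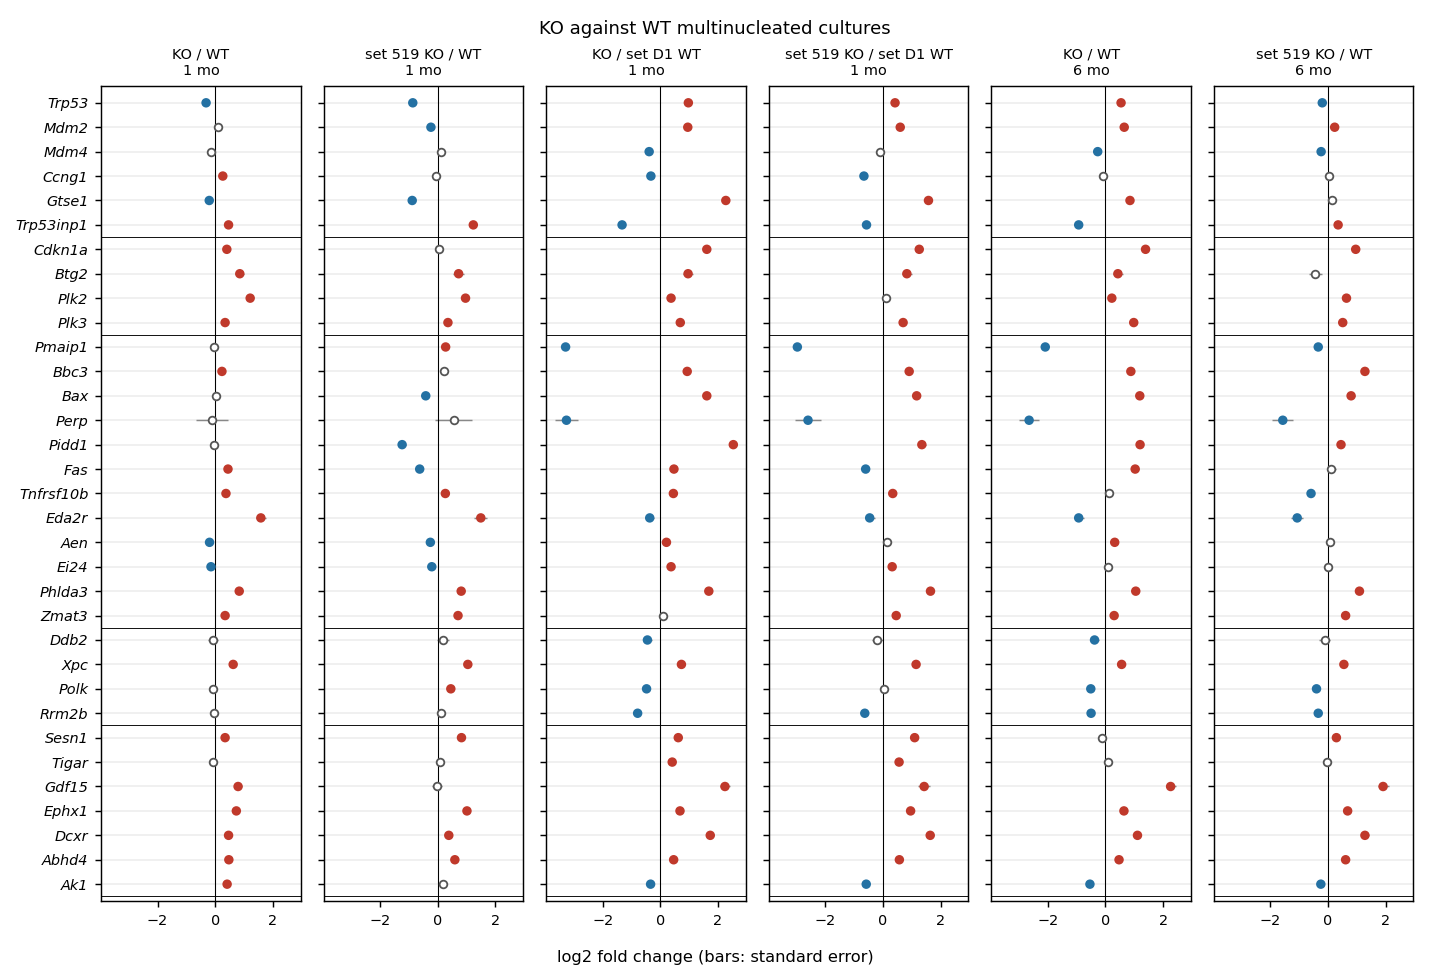
Log2 fold changes of the 33 members, KO over WT, in 6 pairings of title sets and ages, with standard errors as bars: filled points passed an adjusted p of 0.05 (red higher in KO, blue lower in KO) and open points did not, and panels that use the same group share its libraries. Plk3, Phlda3, Xpc, Ephx1, Dcxr and Abhd4 passed right of 0 in every panel, whereas Trp53, Fas, Eda2r and Pmaip1 change side with the sets or the age.

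Among the core genes, Trp53 itself had no single direction. At 1 month it stood at 126, 113 and 132 CPM in KO and 89.5, 83.5 and 80.7 CPM in set 519 KO, against 158, 152 and 154 CPM in WT and 66, 60.2 and 63.1 CPM in set D1 WT. Both KO groups lay below unprefixed WT and above set D1, without overlap. Against unprefixed WT it fell in KO (-0.32 ± 0.06, adjusted p = 3.1e-05) and in set 519 KO (-0.87 ± 0.06). Against set D1 it rose, at 0.97 ± 0.06 in KO and 0.42 ± 0.07 in set 519 KO. In 6-month donors it stood at 145, 149 and 160.1 CPM in KO and 87.3, 93.2 and 91.6 CPM in set 519 KO, against 103, 105 and 103 CPM in WT. Trp53 thus rose in unprefixed KO (0.54 ± 0.06) and fell in set 519 KO (-0.20 ± 0.06, adjusted p = 0.0084). That call was lost without set 519 KO replicate 2 or WT replicate 3 (adjusted p up to 0.12). The sum of cycling genes moved in the same order, at 1830 to 1860 CPM in KO and 994 to 1020 CPM in set 519 KO, against 1480 to 1580 CPM in WT, and its part was not tested.

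Mdm2, the ubiquitin ligase that p53 induces and that degrades p53, held 509.7, 520.3 and 518 CPM in 1-month KO and 389, 422 and 407 CPM in set 519 KO, against 478, 482 and 482 CPM in WT and 267, 275 and 262 CPM in set D1 WT. The unprefixed KO libraries lay just above those of WT, and the difference did not pass (0.10 ± 0.05, adjusted p = 0.072). Set 519 KO fell against the same WT (-0.24 ± 0.05), and both KO sets rose against set D1 (0.95 ± 0.05 and 0.60 ± 0.05). At 6 months Mdm2 rose in KO (0.65 ± 0.05, 1.56-fold) and in set 519 KO (0.23 ± 0.05). Its levels there were 509.6, 493 and 486 CPM and 370.5, 369 and 373 CPM in the KO sets, against 302, 328 and 321 CPM in WT. Mdm4, the Mdm2 relative that blocks p53 transactivation, rose in none of the 6 pairings. It fell in KO against set D1 (-0.39 ± 0.08) and, at 6 months, in KO (-0.27 ± 0.08) and set 519 KO (-0.24 ± 0.08) against WT. The call in 6-month set 519 KO was lost without set 519 KO replicate 2 or 3 or WT replicate 2 or 4 (adjusted p up to 0.1).

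Ccng1, a p53-induced cyclin that acts in the Mdm2 loop, stood at 265, 273 and 249.5 CPM in 1-month KO against 227, 214 and 217 CPM in WT, and rose (0.26 ± 0.05). Set 519 KO, at 201, 207 and 221 CPM, did not pass against the same WT (-0.07 ± 0.05, adjusted p = 0.26). Set D1 WT was highest, at 326, 339 and 327 CPM, so Ccng1 fell in both KO sets against it (-0.33 ± 0.05 and -0.66 ± 0.05). At 6 months neither KO set passed (-0.10 ± 0.05 in KO and 0.04 ± 0.05 in set 519 KO). Gtse1, a mitotic protein that removes p53 from the nucleus, held 43.2 to 49.5 CPM in 1-month KO and 27 to 29.6 CPM in set 519 KO, against 50.8 to 53.5 CPM in WT and 9.04 to 9.62 CPM in set D1 WT. Against unprefixed WT it fell in both KO sets (-0.21 ± 0.06 and -0.89 ± 0.07), the first of them not called without the filter on low counts (adjusted p = 0.07) or in a fit of those 2 groups alone (0.063), and against set D1 it rose (2.27 ± 0.08 and 1.58 ± 0.09). Unprefixed 6-month KO was higher than WT (0.85 ± 0.07), and 6-month set 519 KO did not pass (0.14 ± 0.08, adjusted p = 0.12).

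Trp53inp1, a stress protein that aids p53 phosphorylation and autophagy, stood at 46.7 to 53.5 CPM in 1-month KO and 66.3 to 92.6 CPM in set 519 KO, against 32.8 to 37.6 CPM in WT and 122 to 127 CPM in set D1 WT. It rose in both KO sets against unprefixed WT (0.46 ± 0.08 and 1.23 ± 0.09) and fell in both against set D1 (-1.33 ± 0.08 and -0.57 ± 0.08). At 6 months it fell in unprefixed KO (-0.93 ± 0.08, 32.7 to 36.9 CPM against 63.8 to 68.8 CPM in WT) and rose in set 519 KO (0.35 ± 0.08).

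All 4 arrest genes rose in unprefixed KO against WT of 1 month and of 6 months, and 3 of 4 in set 519 KO against the same WT at each age. The shares of all genes called higher were 20.7% and 30.5% in unprefixed KO, and 27.2% and 25.7% in set 519 KO, at 1 and 6 months. Cdkn1a, the cyclin-dependent kinase inhibitor p21 and the classical p53 target, stood at 746, 719 and 738 CPM in 1-month KO and 628, 540.1 and 563 CPM in set 519 KO. WT of that age held 594, 542 and 531 CPM and set D1 WT 238, 232 and 251 CPM. Every unprefixed KO library lay above every WT library, and set 519 KO overlapped unprefixed WT. Cdkn1a rose in KO (0.40 ± 0.05, 1.32-fold, adjusted p = 1.6e-07), and did not pass in set 519 KO against the same WT (0.05 ± 0.05, adjusted p = 0.42). Against set D1 both rose (1.61 ± 0.05 and 1.26 ± 0.06). At 6 months Cdkn1a stood at 505, 512 and 507 CPM in KO and 378, 376 and 377 CPM in set 519 KO, against 209, 189 and 183 CPM in WT. The 3 groups did not overlap, and Cdkn1a rose 2.62-fold in KO (1.39 ± 0.05) and 1.95-fold in set 519 KO (0.96 ± 0.06).

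Plk2, a polo-like kinase induced by stress, was the arrest gene with the largest difference from unprefixed WT at 1 month. It stood at 162, 158 and 165 CPM in KO and 128, 143 and 136 CPM in set 519 KO, against 68.9, 76.2 and 64.4 CPM in WT and 125, 134 and 118 CPM in set D1 WT. Unprefixed WT was clearly lowest, and the differences from it were 1.21 ± 0.06 in KO and 0.96 ± 0.07 in set 519 KO. Against set D1 the difference was 0.37 ± 0.06 in KO and did not pass in set 519 KO (0.11 ± 0.06, adjusted p = 0.13). At 6 months Plk2 rose by 0.22 ± 0.06 in KO and 0.64 ± 0.07 in set 519 KO. Plk3, its relative in the stress checkpoint, stood at 31.6, 35.4 and 36 CPM in 1-month KO against 26.9, 26 and 28.4 CPM in WT, and at 24.9, 25 and 25.8 CPM in 6-month KO against 12.1, 12.9 and 13.2 CPM in WT. Neither pair of groups overlapped, and Plk3 rose at both ages (0.34 ± 0.08 and 0.98 ± 0.08). It also rose in set 519 KO against unprefixed WT, by 0.35 ± 0.08 at 1 month and 0.51 ± 0.10 at 6 months. Against set D1 it rose by 0.69 ± 0.08 in KO and 0.70 ± 0.09 in set 519 KO. Plk3 overlaps the opposite-strand gene Tctex1d4, whose counts came to 5.06% of its own.

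Btg2, an antiproliferative cofactor of transcription, stood at 19.1, 17.5 and 18.5 CPM in 1-month KO and 18.6, 14.6 and 18.7 CPM in set 519 KO, against 11.3, 8.54 and 10.7 CPM in WT and 9.97, 8.70 and 9.60 CPM in set D1 WT. It rose against unprefixed WT (0.85 ± 0.15 in KO, 0.72 ± 0.18 in set 519 KO) and against set D1 (0.96 ± 0.16 and 0.83 ± 0.18). At 6 months the libraries overlapped, at 9.48, 8.71 and 13.3 CPM in KO and 5.34, 3.29 and 7.52 CPM in set 519 KO, against 7.65, 6.87 and 8.86 CPM in WT. Btg2 passed there in unprefixed KO (0.43 ± 0.17, adjusted p = 0.03) and not in set 519 KO (-0.44 ± 0.22, adjusted p = 0.085).

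**Figure D3:**
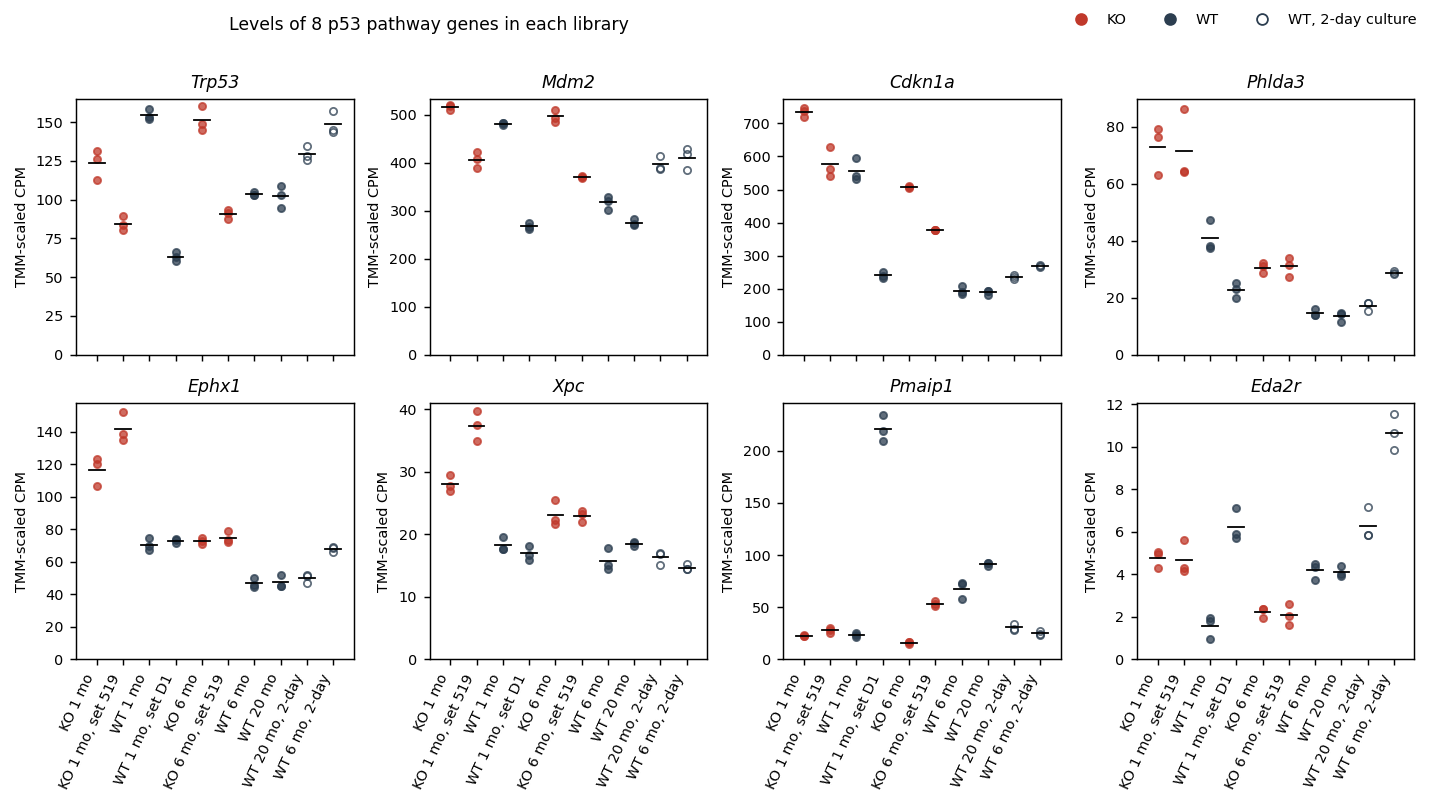
TMM-scaled CPM of 8 members in each of the 30 libraries, with points for libraries and bars for group means. Phlda3, Ephx1 and Xpc are highest in KO cultures of 1-month donors, Pmaip1 is highest in set D1, and Eda2r is highest in 2-day cultures of 6-month WT.

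Over the 6 pairings of KO and WT, Phlda3, Zmat3 and Bbc3 among the 12 apoptosis genes passed as higher in KO and never as lower, and Perp as lower and never as higher. The other 8 passed in both directions. Phlda3, which inhibits the survival kinase Akt, stood at 79.1, 62.9 and 76.3 CPM in 1-month KO and 86.1, 64.6 and 64.3 CPM in set 519 KO, against 47.5, 38.2 and 37.3 CPM in WT and 23, 19.9 and 25 CPM in set D1 WT. Each KO library lay above each WT library of that age. The rises were 0.83 ± 0.10 in KO and 0.81 ± 0.11 in set 519 KO against unprefixed WT, and 1.68 ± 0.11 and 1.65 ± 0.12 against set D1. At 6 months it stood at 31, 32.1 and 28.6 CPM in KO and 34.1, 27.3 and 31.6 CPM in set 519 KO, against 16.2, 14.1 and 14 CPM in WT, and rose in both (1.05 ± 0.12 and 1.09 ± 0.13). Zmat3, an RNA-binding zinc finger protein and p53 target, held 67.2 to 76.1 CPM in KO and 89.1 to 94.5 CPM in set 519 KO of 1 month, against 52.6 to 60.4 CPM in WT and 64.8 to 68.8 CPM in set D1 WT. It rose by 0.70 ± 0.06 in set 519 KO against WT of 1 month and by 0.61 ± 0.06 at 6 months, while unprefixed KO differed by 0.34 ± 0.06 and 0.30 ± 0.06 at the same ages. Unprefixed KO against set D1 did not pass (0.09 ± 0.06, adjusted p = 0.16).

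The mitochondrial death genes differed among themselves. Pmaip1 encodes Noxa, a BH3-only protein that frees the pore formers Bax and Bak. It stood at 22.1, 23.1 and 22.7 CPM in 1-month KO and 27.7, 29.9 and 25.5 CPM in set 519 KO, against 25.7, 22.9 and 21.8 CPM in WT and 219, 235 and 209.5 CPM in set D1 WT. Set D1 stood far above the other groups, which lay close together. KO did not pass against WT (-0.05 ± 0.08, adjusted p = 0.68). Set 519 KO rose slightly (0.27 ± 0.09, adjusted p = 0.015) with overlapping libraries, and the call was lost without its replicate 3 or without WT replicate 4 (adjusted p up to 0.2). Against set D1, Pmaip1 fell by 3.29 on the log2 scale in KO and by 2.97 in set 519 KO. At 6 months it stood at 16.2, 16.5 and 15.1 CPM in KO and 53.5, 56 and 51 CPM in set 519 KO, against 72.8, 58.3 and 71.8 CPM in WT, and fell 4.24-fold in KO (-2.09 ± 0.08) and 1.27-fold in set 519 KO (-0.34 ± 0.08). The osteoclast marker sum was also highest in set D1 and lower in unprefixed than in set 519 KO of 6 months, and its part in the Pmaip1 levels was not tested.

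Bbc3 encodes Puma, another BH3-only protein. It stood at 19.3, 17.4 and 21.9 CPM in 1-month KO and 21.1, 17.7 and 20.3 CPM in set 519 KO, against 16.9, 16.6 and 16.9 CPM in WT and 10.3, 10.5 and 10.2 CPM in set D1 WT. It rose in unprefixed KO against WT (0.23 ± 0.09, adjusted p = 0.034, a call that 5 single omissions ended) and in both KO sets against set D1 (0.93 ± 0.09 and 0.91 ± 0.10), and missed the threshold in set 519 KO against WT (0.21 ± 0.10, adjusted p = 0.066). At 6 months it held 12.8, 15.1 and 15.5 CPM in KO and 19.1, 20.8 and 18 CPM in set 519 KO, against 7.77, 8.28 and 7.55 CPM in WT, with no overlap. It rose 1.84-fold in KO (0.88 ± 0.10) and 2.43-fold in set 519 KO (1.28 ± 0.10).

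Bax, which forms the pore that releases cytochrome c, stood at 124, 90.8 and 109.6 CPM in 1-month KO and 105, 65.4 and 72.5 CPM in set 519 KO, against 123, 99.1 and 98.8 CPM in WT and 36.8, 30.4 and 39 CPM in set D1 WT. KO and WT overlapped and did not differ past the threshold (0.02 ± 0.10, adjusted p = 0.92). Set 519 KO was lower than the same WT (-0.42 ± 0.11) although its first library lay among those of WT, and without its replicate 3 the adjusted p was 0.079. Both KO sets rose against set D1 (1.61 ± 0.11 and 1.17 ± 0.12). At 6 months Bax held 86.2, 96.2 and 97.2 CPM in KO and 73.6, 72.3 and 68.6 CPM in set 519 KO, against 39.2, 44 and 39.6 CPM in WT. The groups did not overlap, and Bax rose 2.28-fold in KO (1.19 ± 0.11) and 1.74-fold in set 519 KO (0.80 ± 0.12).

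Pidd1, the scaffold of the complex that activates caspase-2, held 19.4 to 22.1 CPM in 1-month KO and 8.18 to 11.6 CPM in set 519 KO, against 21 to 22.6 CPM in WT and 3.44 to 3.93 CPM in set D1 WT. Unprefixed KO did not pass against WT (-0.05 ± 0.09), set 519 KO fell (-1.24 ± 0.12), and both rose against set D1 (2.53 ± 0.12 and 1.35 ± 0.15). At 6 months Pidd1 rose in KO (1.20 ± 0.10) and in set 519 KO (0.45 ± 0.12). Perp, a membrane protein of desmosomes, was scarce, with 2 to 46 counts per library. Its levels at 6 months were 0.506, 0.174 and 0.350 CPM in KO and 0.724, 0.346 and 0.940 CPM in set 519 KO, against 1.93, 2.36 and 2.23 CPM in WT, so that WT stood apart and Perp fell in both (-2.65 ± 0.34 and -1.57 ± 0.36). Against unprefixed WT of 1 month it did not pass (-0.11 ± 0.56 in KO and 0.55 ± 0.65 in set 519 KO), and against set D1 it fell (-3.26 ± 0.39 and -2.60 ± 0.46).

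The receptor genes of this role had no single direction across ages and sets. Eda2r, a TNF receptor family member that binds ectodysplasin A2, stood at 4.96, 4.29 and 5.05 CPM in 1-month KO and 4.32, 4.14 and 5.61 CPM in set 519 KO, against 0.980, 1.96 and 1.80 CPM in WT and 5.70, 7.13 and 5.89 CPM in set D1 WT. Unprefixed WT was lowest of these groups, and Eda2r rose against it 3-fold in KO (1.58 ± 0.18) and 2.82-fold in set 519 KO (1.49 ± 0.22). Against set D1 it fell slightly (-0.37 ± 0.15 in KO and -0.46 ± 0.18 in set 519 KO). The first of these calls was lost without KO replicate 2 or set D1 replicate 2 (adjusted p up to 0.15), and the second without set D1 replicate 2 or set 519 KO replicate 2 or 3 (up to 0.2). At 6 months it held 2.35, 2.35 and 1.93 CPM in KO and 1.63, 2.60 and 2.05 CPM in set 519 KO, against 3.74, 4.51 and 4.36 CPM in WT. Here WT was highest without overlap, and Eda2r fell in both KO sets (-0.93 ± 0.17 and -1.07 ± 0.21). Eda2r is X-linked, and set D1 differs in sex.

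Fas, the receptor of Fas ligand, stood at 17.2, 17.8 and 16.7 CPM in 1-month KO and 8.01, 7.96 and 9.12 CPM in set 519 KO, against 13.5, 11 and 13.6 CPM in WT and 12, 12.7 and 12.7 CPM in set D1 WT. It rose in unprefixed KO against WT (0.44 ± 0.10) and fell in set 519 KO against WT (-0.63 ± 0.13) and against set D1 (-0.60 ± 0.13). At 6 months unprefixed KO, at 9.48, 11.3 and 10.6 CPM against 4.96, 5.56 and 4.89 CPM in WT, rose 2.04-fold (1.03 ± 0.12), and set 519 KO did not pass (0.12 ± 0.15, adjusted p = 0.54). Tnfrsf10b, the mouse TRAIL receptor, rose in unprefixed KO of 1 month (0.37 ± 0.10) at 15.3 to 17 CPM against 11.7 to 12.9 CPM in WT. In 6-month set 519 KO it fell (-0.59 ± 0.12) at 7.69 to 8.13 CPM against 11.3 to 12.4 CPM in WT. The nuclease Aen and the endoplasmic reticulum protein Ei24 stayed within -0.26 and 0.37 on the log2 scale in the 6 pairings.

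Among the 4 repair genes, Xpc was the one higher in KO against WT at both ages. Xpc, the damage sensor that starts nucleotide excision repair, held 27.7, 27 and 29.4 CPM in 1-month KO and 35, 39.7 and 37.4 CPM in set 519 KO, against 17.7, 19.6 and 17.6 CPM in WT and 16.8, 15.9 and 18.1 CPM in set D1 WT. All KO libraries lay above all WT libraries of that age. The rises were 0.62 ± 0.08 in KO and 1.04 ± 0.09 in set 519 KO against unprefixed WT, and 0.73 ± 0.08 and 1.15 ± 0.09 against set D1. In cultures of 6-month donors Xpc held 25.6, 22.2 and 21.6 CPM in KO and 23.8, 23.2 and 22 CPM in set 519 KO, against 17.8, 15 and 14.4 CPM in WT, and rose in both (0.56 ± 0.08 and 0.55 ± 0.09).

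Polk, a polymerase that copies past DNA lesions, was lower in 6-month KO (-0.51 ± 0.07) at 28.3 to 30.6 CPM against 41 to 44.3 CPM in WT, and in set 519 KO of that age (-0.40 ± 0.08). At 1 month it was lower in KO against set D1 (-0.48 ± 0.08) and higher in set 519 KO against unprefixed WT (0.45 ± 0.09), at 34.7 to 38.5 CPM against 23.9 to 28.9 CPM without overlap, and the other pairings did not pass (-0.07 ± 0.08 and 0.04 ± 0.08). Rrm2b, the p53-induced subunit of ribonucleotide reductase, was lower in unprefixed 6-month KO (-0.50 ± 0.08) at 15.7 to 18.4 CPM against 23.6 to 24.6 CPM in WT. It was also lower in set 519 KO of 6 months (-0.34 ± 0.09). At 1 month it did not pass against unprefixed WT (-0.04 ± 0.08 in KO and 0.12 ± 0.09 in set 519 KO). Against set D1, Rrm2b fell in both KO sets of 1 month (-0.79 ± 0.08 and -0.63 ± 0.09). Ddb2, the ultraviolet damage sensor, was lower in unprefixed KO against set D1 (-0.45 ± 0.17) and against WT of 6 months (-0.38 ± 0.16). The first call was lost without KO replicate 1 or 2 or set D1 replicate 2 (adjusted p up to 0.19), and the second without any 1 of 5 of the 6 libraries, all but WT replicate 3 (up to 0.17). Ddb2 is uncertain because the opposite-strand gene Acp2 overlaps it and held 95044 counts over the libraries, against 2780 for Ddb2, and no strand option is recorded for the counting.

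Of the 7 metabolic and secreted members, Ephx1, Abhd4, Dcxr and Gdf15 rose in unprefixed KO at both ages. Ephx1, the microsomal epoxide hydrolase, stood at 120.5, 106 and 123 CPM in 1-month KO and 152, 138 and 135 CPM in set 519 KO, against 74.4, 69.6 and 67.2 CPM in WT and 73.3, 71.6 and 73.9 CPM in set D1 WT. KO and WT libraries were separate, with rises of 0.73 ± 0.06 in KO and 1.01 ± 0.07 in set 519 KO against unprefixed WT, and 0.68 ± 0.06 and 0.96 ± 0.07 against set D1. Ephx1 at 6 months held 73, 71.1 and 74.9 CPM in KO and 73.5, 72.1 and 78.9 CPM in set 519 KO, against 50.1, 45.8 and 44.5 CPM in WT (0.64 ± 0.07 and 0.68 ± 0.07). Abhd4, a lipase of N-acyl phospholipids, rose by 0.47 ± 0.06 in KO and 0.59 ± 0.06 in set 519 KO against WT of 1 month, and by 0.47 ± 0.06 and 0.61 ± 0.07 at 6 months. Its levels were 89 to 94.4 CPM and 92.8 to 104 CPM in the KO sets of 1 month, against 64.7 to 67.7 CPM in WT and 64.3 to 68.4 CPM in set D1 WT. At 6 months they were 65.9 to 68.3 CPM and 71.7 to 76.9 CPM in the KO sets, against 44.6 to 52.1 CPM in WT.

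Dcxr, a reductase of dicarbonyls and xylulose, stood at 18.5, 20.3 and 21.4 CPM in 6-month KO and 22.6, 22.8 and 22.3 CPM in set 519 KO, against 7.65, 10.5 and 9.68 CPM in WT. WT lay far below both KO sets, which rose 2.16-fold (1.11 ± 0.12) and 2.42-fold (1.28 ± 0.13). At 1 month the KO sets held 26.6 to 33.3 CPM and 24 to 31.7 CPM, against 20.3 to 23.8 CPM in WT and 7.54 to 9.92 CPM in set D1 WT. It rose against unprefixed WT (0.46 ± 0.11 and 0.38 ± 0.12) and against set D1 (1.73 ± 0.12 and 1.64 ± 0.13), although the call in set 519 KO against unprefixed WT was lost without set 519 KO replicate 2 (adjusted p = 0.069).

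Gdf15, a stress cytokine of the TGF-beta family, stood at 10.9, 13.5 and 11.3 CPM in 6-month KO and 9.04, 10.7 and 8.80 CPM in set 519 KO, against 2.45, 2.73 and 2.28 CPM in WT. It rose 4.78-fold in KO (2.26 ± 0.17) and 3.77-fold in set 519 KO (1.91 ± 0.19). At 1 month it held 13.5, 12.4 and 15.7 CPM in KO and 10.0, 7.89 and 5.14 CPM in set 519 KO, against 9.80, 7.25 and 7.17 CPM in WT and 3.24, 2.85 and 2.69 CPM in set D1 WT. Unprefixed KO lay above WT (0.79 ± 0.14), set 519 KO overlapped it (-0.02 ± 0.17, adjusted p = 0.93), and both rose against set D1 (2.24 ± 0.17 and 1.43 ± 0.20).

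Sesn1, a leucine sensor that restrains mTORC1, rose in set 519 KO of 1 month (0.82 ± 0.07 against unprefixed WT and 1.10 ± 0.07 against set D1), at 90.5 to 95.7 CPM against 52.2 to 53 CPM in WT and 41.5 to 46.1 CPM in set D1 WT. Unprefixed KO, at 65.5 to 67.9 CPM, rose by 0.34 ± 0.07 against WT and by 0.62 ± 0.07 against set D1. At 6 months it rose in set 519 KO (0.29 ± 0.07), and unprefixed KO did not pass (-0.13 ± 0.07). Tigar, a phosphatase that lowers glycolytic flux, passed against set D1 only (0.41 ± 0.08 in KO and 0.56 ± 0.09 in set 519 KO), and against unprefixed WT its values were -0.08, 0.07, 0.08 and -0.05. Ak1, an adenylate kinase, rose in unprefixed KO of 1 month (0.41 ± 0.08), and fell in set 519 KO against set D1 (-0.58 ± 0.09) and in unprefixed KO of 6 months (-0.54 ± 0.07).

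Of the other 58 p53 pathway genes on a separate list (upstream regulators, further targets and effectors of the cell cycle and apoptosis), 54 were tested. In unprefixed KO, 17 were higher and 14 lower at 1 month, and 21 higher and 18 lower at 6 months. Of all genes, 20.7% were higher and 20.8% lower at 1 month, and 30.5% higher and 29.5% lower at 6 months. Their median log2 fold changes were 0.04 and 0.07. The largest rises at 1 month were those of the stress protein Gadd45a (1.17 ± 0.12), cyclin Ccnd2 (1.06 ± 0.09) and the sestrin Sesn3 (1.01 ± 0.16). The largest falls were those of the mitochondrial reductase Fdxr (-0.84 ± 0.10), the checkpoint kinase Chek1 (-0.47 ± 0.10) and cytochrome c, Cycs (-0.45 ± 0.07). At 6 months the survival gene Bcl2l1 (1.64 ± 0.08), cyclin Ccnd1 (1.55 ± 0.06) and the locus Cdkn2a of the inhibitors p16 and p19Arf (1.39 ± 0.11) rose most. Hipk2 (-0.73 ± 0.20), a kinase that acts on p53, the secreted protein Thbs1 (-0.67 ± 0.09) and the damage kinase Atm (-0.61 ± 0.13) fell most there.

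The size of the KO difference itself changed between 6 and 1 months in the unprefixed libraries for 13 members upward and 10 downward, beside 48.6% of all genes (27.1% up, 21.6% down). Trp53, Gtse1 and Aen were higher in KO at 6 months and lower in KO at 1 month, each past the threshold, although Aen at 1 month was lost without KO replicate 2 (adjusted p = 0.082). The difference between ages was 0.87 ± 0.08 for Trp53, 1.06 ± 0.09 for Gtse1 and 0.51 ± 0.09 for Aen. Trp53inp1, Eda2r and Ak1 were lower in KO at 6 months and higher in KO at 1 month, with differences of -1.39 ± 0.12, -2.51 ± 0.25 and -0.96 ± 0.11. The difference between ages was -2.54 ± 0.70 for Perp, -2.04 ± 0.12 for Pmaip1 and 1.47 ± 0.22 for Gdf15. These tests used unprefixed WT of 1 month only, and no such difference was tested with set D1, which also differs in sex. Against set D1, 1-month KO was higher for Trp53 (0.97 ± 0.06), Gtse1 (2.27 ± 0.08) and Aen. It was lower for Trp53inp1 (-1.33 ± 0.08), Eda2r and Ak1. All of these members thus lay on the same side as in 6-month KO against WT. The Eda2r call against set D1 was lost without KO replicate 2 or set D1 replicate 2 (adjusted p up to 0.15). The Aen call was lost in 1 alternative fit (adjusted p = 0.069). In the unprefixed libraries the cycling marker sum also changed, at 1830 to 1860 CPM in KO against 1480 to 1580 CPM in WT of 6 months, and 1530 to 1590 CPM in KO against 2120 to 2250 CPM in WT of 1 month. Its part was not tested.

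Within KO, older donors gave lower levels of most called members in both title sets, which share no library. In unprefixed KO, 3 members were higher and 18 lower at 6 than at 1 month, beside 37.5% of all genes called (19.7% higher, 17.8% lower), with a median of -0.31 against 0.01 over all genes. In set 519 KO, 2 were higher and 15 lower, beside 32.5% (19.2% higher, 13.2% lower), with medians of -0.17 and 0.04. The same 13 members fell in both sets (39.4%), against 7.90% of all genes, and 0 rose in both, against 10.4%. The 13 were the 4 arrest genes, Fas, Tnfrsf10b, Eda2r, Phlda3, Zmat3, Xpc, Sesn1, Ephx1 and Abhd4. The Tnfrsf10b call in unprefixed KO was lost without 6-month replicate 3 (adjusted p = 0.069).

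Cdkn1a stood at 505, 512 and 507 CPM in 6-month KO against 746, 719 and 738 CPM in 1-month KO, and in set 519 at 378, 376 and 377 CPM against 628, 540.1 and 563 CPM. The ages did not overlap in either set, with log2 fold changes of -0.53 ± 0.05 and -0.61 ± 0.05. Phlda3 fell 2.38-fold in unprefixed KO (-1.25 ± 0.10) and 2.28-fold in set 519 (-1.19 ± 0.12). The 6 largest called differences in unprefixed KO were those of Plk2 (-1.28 ± 0.06), Phlda3, Eda2r (-1.11 ± 0.17), Btg2 (-0.81 ± 0.15), Fas (-0.72 ± 0.10) and Ephx1 (-0.68 ± 0.06). In set 519 they were those of Btg2 (-1.55 ± 0.22), Phlda3, Eda2r (-1.16 ± 0.24), Plk3 (-0.93 ± 0.09), Tnfrsf10b (-0.92 ± 0.14), and Pmaip1 and Ephx1 at nearly equal size (0.92 ± 0.09 and -0.92 ± 0.07). Pmaip1 passed in opposite directions, at 16.2, 16.5 and 15.1 CPM in 6-month against 22.1, 23.1 and 22.7 CPM in 1-month unprefixed KO (-0.51 ± 0.09), and at 53.5, 56 and 51 CPM against 27.7, 29.9 and 25.5 CPM in set 519.

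All 10 osteoclast markers were higher at 6 than at 1 month in both KO sets. Their sum was 2310 to 2620 CPM against 619 to 680 CPM in unprefixed KO and 26400 to 27500 CPM against 6920 to 8140 CPM in set 519, and its part in the falls was not tested. Of the 54 other pathway genes, 8 were higher and 15 lower in unprefixed KO, and 16 higher and 13 lower in set 519, beside 19.7% higher and 17.8% lower of all genes in unprefixed KO and 19.2% and 13.2% in set 519. Those that fell included Gadd45a (-1.31 ± 0.13) and the checkpoint protein Sfn (-0.69 ± 0.12) in unprefixed KO, and Thbs1 (-1.63 ± 0.09) and the repressor Bcl6 (-0.87 ± 0.08) in set 519. The largest rises were those of Hipk2 (0.75 ± 0.21), Fdxr (0.60 ± 0.10) and the ferrireductase Steap3 (0.50 ± 0.06) in unprefixed KO, and of Fdxr (1.03 ± 0.12), Gadd45b (0.82 ± 0.16) and Cycs (0.78 ± 0.08) in set 519.

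**Figure D4:**
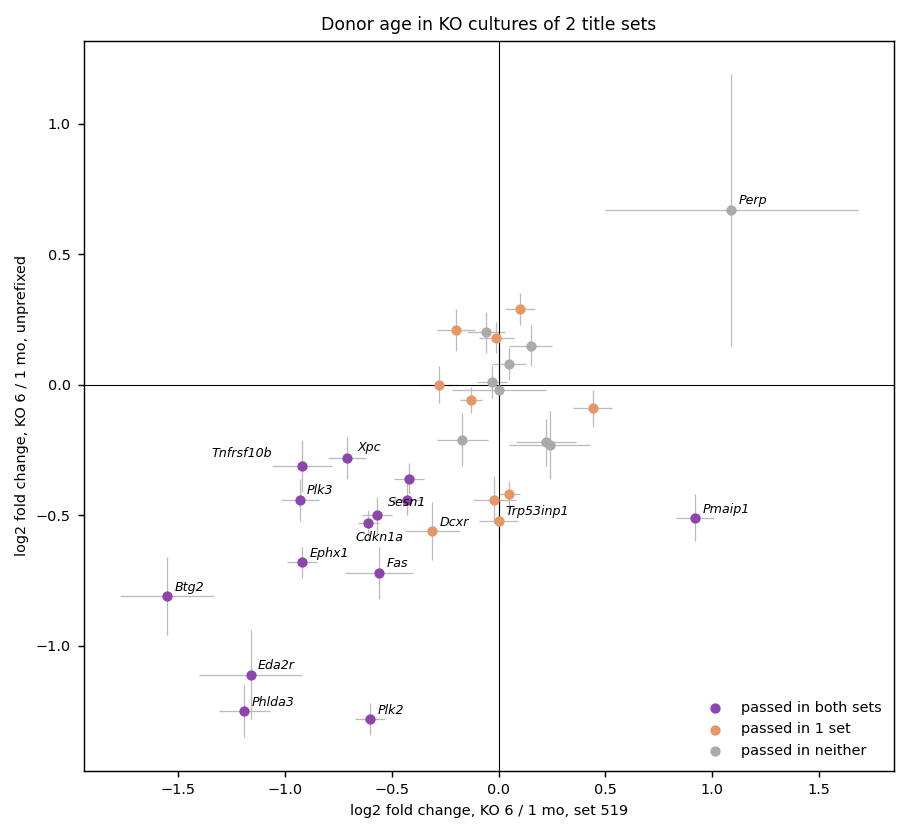
Each point is a member, with its log2 fold change between 6-month and 1-month KO donors in set 519 across and in the unprefixed libraries up, and standard errors as lines. The 13 members that fell in both sets lie in the lower left, and Pmaip1 alone passed in both with opposite signs.

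In multinucleated unprefixed WT most called members were lower at 6 and at 20 months than at 1 month. Set D1, the other WT of 1 month, does not enter these tests. Against unprefixed 1-month WT, 8 members were higher and 20 lower at 6 months (63.6% of all genes called, 31.2% higher and 32.5% lower), and 9 higher and 21 lower at 20 months (68.6%, 34.2% higher and 34.4% lower). Both use the same 1-month libraries, and neither later age was tested against set D1. Cdkn1a stood at 594, 542 and 531 CPM at 1 month, 209, 189 and 183 CPM at 6 months and 179.9, 193 and 194 CPM at 20 months. The 6- and 20-month libraries overlapped, and each lay far below those of unprefixed 1-month WT (-1.52 ± 0.05 and -1.55 ± 0.05), while set D1 held 232 to 251 CPM, nearer to the later ages. Perp (3.21 ± 0.37), Gdf15 (-1.69 ± 0.18), Pmaip1 (1.53 ± 0.08), Cdkn1a, Phlda3 (-1.47 ± 0.11) and Pidd1 (-1.47 ± 0.10) changed most at 6 months. At 20 months the largest were Perp (2.25 ± 0.41), Pmaip1 (1.97 ± 0.08), Gdf15 (-1.83 ± 0.18), Pidd1 (-1.79 ± 0.10), Bax (-1.62 ± 0.11) and Plk3 (-1.61 ± 0.09). Pmaip1 held 25.7, 22.9 and 21.8 CPM at 1 month, 72.8, 58.3 and 71.8 CPM at 6 months and 90.0, 92.1 and 92.8 CPM at 20 months, so the 3 ages did not overlap in unprefixed WT. Set D1, at 209.5 to 235 CPM, lay above both later ages. For Trp53 and Gtse1, too, the 1-month WT sets lay on opposite sides of 6-month WT. Trp53 held 60.2 to 66 CPM in set D1 and 152 to 158 CPM in unprefixed WT of 1 month, with 103 to 105 CPM at 6 months. Gtse1 held 9.04 to 9.62 CPM in set D1 and 50.8 to 53.5 CPM in unprefixed WT of 1 month, with 25.4 to 27.4 CPM at 6 months. The unprefixed 1-month WT cultures were also poorest in osteoclast markers, with sums of 2230 to 2340 CPM at 1 month, 20500 to 22200 CPM at 6 months and 22900 to 24600 CPM at 20 months. The part of cell makeup was not tested.

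Between 20 and 6 months 9 members of multinucleated WT changed. Of these, 3 were higher and 6 lower at 20 months, beside 14.3% of all genes (7.39% higher, 6.90% lower), and the median member differed by -0.02. The called members were Perp (-0.96 ± 0.29), Btg2 (0.62 ± 0.17), Plk3 (-0.53 ± 0.09), Pmaip1 (0.44 ± 0.07), Trp53inp1 (0.42 ± 0.08), Aen (-0.27 ± 0.07), Tigar (-0.27 ± 0.08), Mdm2 (-0.21 ± 0.05) and Ccng1 (-0.18 ± 0.05). Leaving out single libraries ended the calls of Perp (adjusted p up to 0.091, lost in 5 of 6 omissions, all but 6-month replicate 2), Btg2 (up to 0.076, without 6-month replicate 3 or 20-month replicate 4), Tigar (up to 0.098, without 6-month replicate 3 or 4 or 20-month replicate 4), Ccng1 (up to 0.074, without 6-month replicate 4 or 20-month replicate 1) and Aen (0.052, without 20-month replicate 1). Trp53 did not pass, at 103, 109 and 94.5 CPM at 20 months against 103, 105 and 103 CPM at 6 months (-0.02 ± 0.06, adjusted p = 0.85). With a fit to these 6 libraries alone 15 members passed in place of 9. Stromal marker sums were 2400 to 2770 CPM at 20 months against 1190 to 1550 CPM at 6 months, and cycling sums 1230 to 1370 CPM against 1480 to 1580 CPM. Of the 7 stromal markers 5 rose and 1 fell, and of the 8 cycling markers 0 rose and 6 fell, and their part was not tested.

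In 2-day WT cultures 14 members changed between the same ages. At 20 months 3 were higher and 11 lower than at 6 months, beside 18.8% of all genes (7.48% higher, 11.3% lower), and 9 in all were called without 6-month replicate 2 or without 20-month replicate 1. Btg2 stood at 10.1, 11.8 and 10.7 CPM at 20 months against 26.9, 17.6 and 17.8 CPM at 6 months (-0.93 ± 0.16). Eda2r stood at 7.19, 5.84 and 5.87 CPM against 10.7, 9.84 and 11.5 CPM (-0.77 ± 0.14), and Phlda3 at 15.4, 18.2 and 18.1 CPM against 28.6, 29.5 and 28.3 CPM (-0.73 ± 0.12). In all of these the 20-month libraries lay below those of 6 months without overlap. Ak1 (-0.69 ± 0.07), Tnfrsf10b (-0.48 ± 0.10) and Ephx1 (-0.43 ± 0.07) followed in size, and Sesn1 was the largest rise (0.40 ± 0.07). Of 7 stromal markers 4 fell beside these, with sums of 2770 to 2940 CPM in 20-month against 3330 to 3570 CPM in 6-month 2-day cultures, and their part was not tested.

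The difference between ages depended on the stage for 7 members upward and 1 downward, beside 12.4% of all genes (7.52% up, 4.86% down). Btg2 had the largest difference, being higher at 20 months in multinucleated cultures, at 10.9, 11.9 and 13.1 CPM against 7.65, 6.87 and 8.86 CPM at 6 months, and lower at 20 months in 2-day cultures. The difference of its 2 age effects was 1.55 ± 0.23 (adjusted p = 6.7e-06). The Btg2 rise in multinucleated cultures was lost without 6-month replicate 3 or 20-month replicate 4 (adjusted p up to 0.076). The same difference was 0.76 ± 0.10 for Ak1, 0.74 ± 0.21 for Eda2r, 0.61 ± 0.17 for Phlda3 and 0.52 ± 0.18 for Fas (adjusted p = 0.049). Fas was lost in 9 of 12 omissions of 1 library (adjusted p up to 0.26), Phlda3 in 4 (up to 0.068) and Eda2r in 2 (up to 0.057). The count of 8 fell to 5 without any one of 6-month 2-day replicate 4, 6-month multinucleated replicate 4, 20-month 2-day replicate 1 or 20-month multinucleated replicate 4.

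Multinucleated cultures had lower levels of many members than 2-day cultures. At 6 months 7 members were higher and 20 lower in multinucleated WT, beside 50.8% of all genes (23.4% higher, 27.4% lower), with medians of -0.37 for members and -0.01 for all genes. At 20 months 6 were higher and 15 lower, beside 52.3% (25.4% higher, 26.9% lower), with medians of -0.14 and 0.00. These comparisons share no library. Of the members, 15 fell at both ages (45.5%), against 19.8% of all genes, and 4 rose at both (12.1%), against 18.1%. The 15 were Trp53, Mdm2, Ccng1, Gtse1, Cdkn1a, Plk2, Plk3, Bax, Pidd1, Tnfrsf10b, Eda2r, Aen, Phlda3, Tigar and Gdf15. Phlda3 at 20 months was lost without 2-day replicate 2 or 3 or multinucleated replicate 2 (adjusted p up to 0.14).

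Trp53 stood at 103, 105 and 103 CPM in multinucleated against 144, 157 and 145 CPM in 2-day WT of 6 months, and at 103, 109 and 94.5 CPM against 126, 128 and 135 CPM at 20 months. The stages did not overlap at either age, with log2 fold changes of -0.52 ± 0.06 and -0.35 ± 0.06. Cdkn1a also fell at both ages (-0.47 ± 0.05 and -0.31 ± 0.05), at 183 to 209 CPM against 265 to 271 CPM and at 179.9 to 194 CPM against 231 to 241 CPM. The 4 that rose at both ages were Pmaip1, Perp, Trp53inp1 and Sesn1. Pmaip1 stood at 72.8, 58.3 and 71.8 CPM in multinucleated against 26.8, 24.3 and 23.5 CPM in 2-day WT of 6 months, and at 90.0, 92.1 and 92.8 CPM against 34.3, 29.5 and 28.6 CPM at 20 months, rises of 2.73-fold and 2.99-fold. Sesn1 rose by 0.85 ± 0.07 and 0.62 ± 0.07, Trp53inp1 by 0.64 ± 0.08 and 1.00 ± 0.08, and Perp by 1.93 ± 0.33 and 1.34 ± 0.38.

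The other largest differences at 6 months were the falls of Btg2 (-1.41 ± 0.16), Eda2r (-1.34 ± 0.14), Gdf15 (-1.29 ± 0.19), Phlda3 (-0.96 ± 0.12) and Pidd1 (-0.95 ± 0.10). At 20 months they were the falls of Pidd1 (-1.03 ± 0.11), Gdf15 (-0.97 ± 0.20) and Gtse1 (-0.92 ± 0.07). All 10 osteoclast markers rose and all 8 cycling markers fell in multinucleated cultures at both ages. At 6 months the cycling sum was 1480 to 1580 CPM in multinucleated against 2560 to 2670 CPM in 2-day cultures, and the osteoclast sum 20500 to 22200 CPM against 3470 to 4090 CPM. Their part was not tested. Of the 54 other pathway genes, 11 rose and 20 fell at 6 months, and 11 rose and 26 fell at 20 months, beside 23.4% higher and 27.4% lower of all genes at 6 months and 25.4% and 26.9% at 20 months. Thbs1 (-2.71 ± 0.09) and Ccnd2 (-2.06 ± 0.08) were among those that fell at 6 months, and Ccnd1 (-1.58 ± 0.07), Chek1 (-1.25 ± 0.10) and cyclin Ccne1 (-1.19 ± 0.09) fell at 20 months. The tetraspanin Cd82 (0.82 ± 0.06), the survival gene Mcl1 (0.69 ± 0.05) and the ubiquitin ligase Rchy1 (0.51 ± 0.06) rose most at 6 months, and Cd82 (0.88 ± 0.06), cyclin Ccng2 (0.77 ± 0.09) and Cdkn2a (0.73 ± 0.16) at 20 months.

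**Figure D5:**
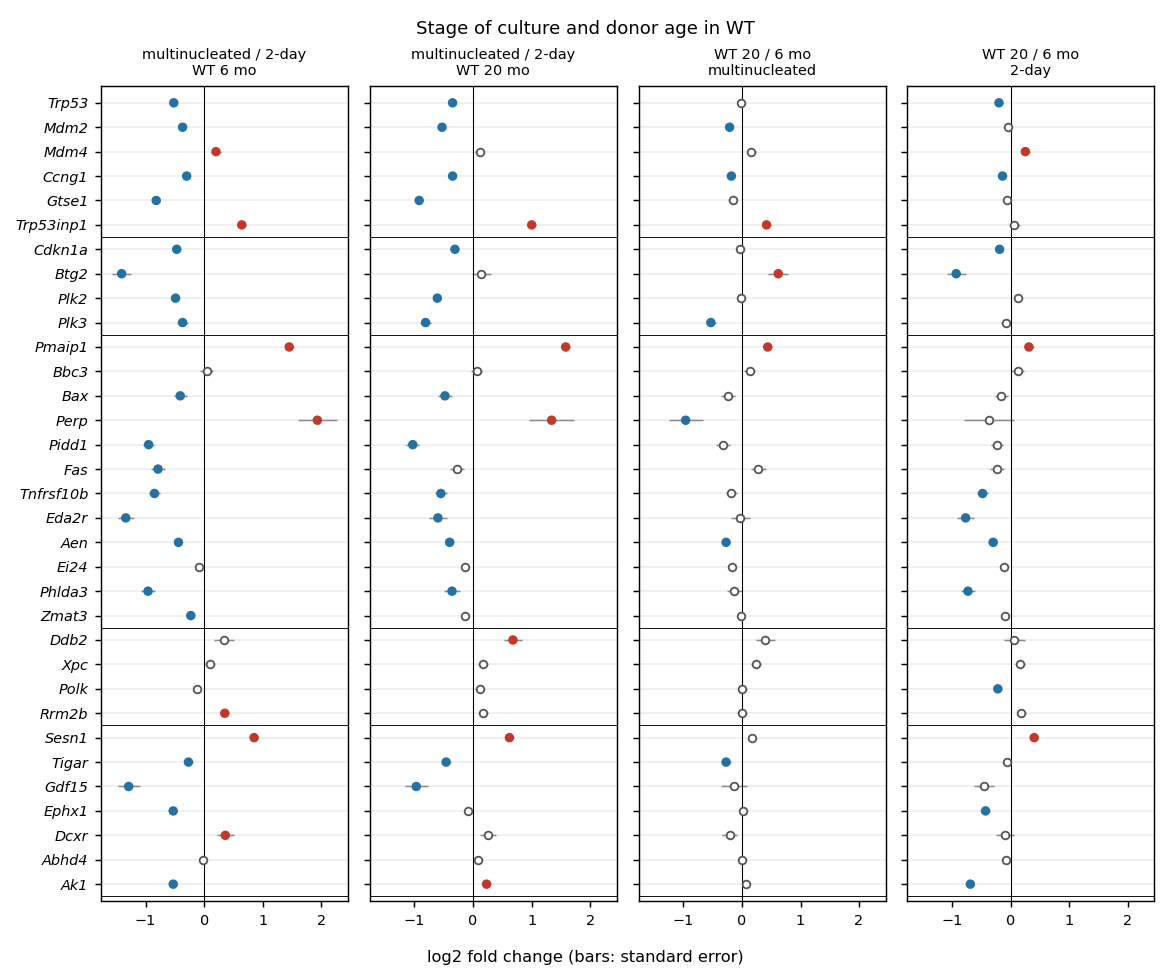
Log2 fold changes of the 33 members in WT cultures with standard errors as bars, for multinucleated over 2-day cultures at 6 and 20 months and for 20 over 6 months at each stage: filled points passed (red higher, blue lower in the group named first) and open points did not. Pmaip1, Perp, Trp53inp1 and Sesn1 lie right of 0 in both stage panels, and Btg2 lies on opposite sides in the age panels.

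KO of 6 months was also compared with the oldest donors, WT of 20 months. Unprefixed KO had 21 members higher and 10 lower, beside 64.8% of all genes (33% higher, 31.8% lower), and set 519 KO 19 higher and 10 lower, beside 52.5% (26.4% higher, 26.1% lower). Both use the same WT libraries. Cdkn1a stood at 505, 512 and 507 CPM in KO and 378, 376 and 377 CPM in set 519 KO, against 179.9, 193 and 194 CPM in 20-month WT (1.42 ± 0.05 and 1.00 ± 0.06). The largest differences in unprefixed KO were those of Pmaip1 (-2.52 ± 0.08), Gdf15 (2.40 ± 0.17), Perp (-1.69 ± 0.37), Pidd1 (1.52 ± 0.10), Plk3 (1.51 ± 0.09), and Cdkn1a and Bax at equal size (1.42 ± 0.11). In set 519 KO they were those of Gdf15 (2.05 ± 0.20), Dcxr (1.49 ± 0.13), Phlda3 (1.22 ± 0.13), Bbc3 (1.15 ± 0.10), Btg2 (-1.06 ± 0.20), and Plk3 and Bax at equal size (1.04 ± 0.10 and 1.04 ± 0.12).

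Libraries of one genotype and age also differed by title set. Set D1 against unprefixed WT of 1 month had 12 members higher and 15 lower, beside 74.5% of all genes (37.5% higher, 36.9% lower). The largest differences were those of Pmaip1 (3.24 ± 0.08, 9.43-fold), Perp (3.15 ± 0.38), Pidd1 (-2.59 ± 0.12), Gtse1 (-2.47 ± 0.08), Eda2r (1.96 ± 0.18) and Trp53inp1 (1.80 ± 0.08). Set 519 against unprefixed KO had 8 higher and 11 lower at 1 month (50% of all genes, 21.9% higher and 28.2% lower) and 8 higher and 11 lower at 6 months (49.1%, 22.6% higher and 26.5% lower). At 1 month the largest were Pidd1 (-1.18 ± 0.12), Fas (-1.06 ± 0.13), Gdf15 (-0.81 ± 0.17), Trp53inp1 (0.77 ± 0.09), Gtse1 (-0.68 ± 0.08) and Trp53 (-0.55 ± 0.06). At 6 months they were Pmaip1 (1.74 ± 0.09), Trp53inp1 (1.28 ± 0.09), Fas (-0.91 ± 0.14), Btg2 (-0.87 ± 0.21), Pidd1 (-0.75 ± 0.11) and Trp53 (-0.74 ± 0.06). Phlda3, Abhd4, Dcxr, Tigar, Ei24, Ddb2, Rrm2b, Eda2r and Perp did not pass between the KO sets at either age, with Phlda3 at -0.03 ± 0.11 and 0.04 ± 0.12.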

How the data were processed

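RNA of 30 libraries was analysed from the deposited gene counts. Per the file headers, the authors counted read pairs with featureCounts 1.6.0 over exons of the Ensembl 88 annotation of GRCm38, from STAR alignments, with no strand option, so opposite-strand neighbours cannot be told apart. The submitters' processing notes name HTSeq and mm10. Depth is 4269798 to 25147975 counts per library. Of 50686 genes, 15310 passed edgeR's filterByExpr. One quasi-likelihood model with a coefficient per group was fitted to all libraries (edgeR 4.0.16 with TMM, limma 3.58.1, R 4.3.3), and p-values were adjusted over all genes by Benjamini-Hochberg. Levels per kilobase used the exon length in the files. The code was tested on simulated data.

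Members and gene lists were chosen with earlier results of these data known. Named with values were members past 0.05 with an absolute log2 fold change of 0.5 or more, 8 fixed members, and the 6 largest (5 for a difference of effects) in the other comparisons. Smaller differences and further members are given where they complete a role, and 1 gene of the other pathway list is not reported here by name. Alternatives were DESeq2 1.42.0 (size factors and Wald test), no filter, a fit of the compared groups alone, a replicate block and leaving out each library. Libraries of a group all differed beyond counting noise (chi-square per degree of freedom 1.28 to 22.3 over genes with 50 or more counts).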

Additional observations from a re-analysis of the deposited data

Results flagged for a closer look

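In 14 cases the difference between a pair of effects was itself tested and passed (edgeR's quasi-likelihood test, adjusted p under 0.05), with the effects on opposite sides or among the largest differences. All values are on the log2 scale. For the KO effect at 6 months minus that at 1 month, in unprefixed libraries of 3 per group, these were Trp53 at 0.87, Gtse1 at 1.06, Aen at 0.51 and Gdf15 at 1.47, which moved up. Those that moved down were Trp53inp1 at -1.39, Pmaip1 at -2.04, Perp at -2.54, Eda2r at -2.51 and Ak1 at -0.96. Perp rests on 2 to 46 counts per library. The 1-month effects here are against unprefixed WT, and the difference was not tested with set D1 WT, which also differs in sex. Against set D1, 1-month KO lay on the same side as 6-month KO for all of these members. The Eda2r call against set D1 was lost without KO replicate 2 or set D1 replicate 2 (adjusted p up to 0.15). For the effect of 20 over 6 months in multinucleated minus 2-day WT cultures, these were Btg2 at 1.55, Ak1 at 0.76, Eda2r at 0.74, Phlda3 at 0.61 and Fas at 0.52.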

How the results depend on the processing

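Over the 21 comparisons, 482 calls on members were made. Of these, 469 were kept with the DESeq2 Wald test, 474 with DESeq2 size factors, 461 with no filter on low counts and 466 with a fit of the groups compared alone. Libraries were not paired by replicate number, and the labels do not say whether same numbers mark a shared source. Correlations of same-numbered libraries ran from -0.152 to 0.261, the highest being that of replicate 1 in unprefixed KO against WT of 1 month. A replicate block kept 476 calls, with 23 members called in KO against WT of 1 month and 27 at 6 months. Leaving out single libraries kept 2906 of 3078 calls, and 0 turned past the threshold in the other direction. The count for WT of 20 against 6 months was 15 in place of 9 in a fit of those groups alone. Without single libraries it ranged over 9 to 14 for 2-day WT of 20 against 6 months and over 5 to 8 for the difference of age effects between stages. Signs turned only among uncalled values, with Pmaip1 in KO against WT of 1 month at -0.10 to 0.02, Bax in the same comparison at -0.10 to 0.13, and Cdkn1a in set 519 KO against WT of 1 month at -0.02 to 0.10. The causes were not tested. Depth limits Perp most, and Terc could not be assessed.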
